A study of Mus musculus with 15 samples.

Results

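The endosomal Toll-like receptors (TLRs) and the transport protein they share were followed through 5 sorted murine mononuclear phagocyte (MP) subtypes. The members were 8 genes taken by name, Tlr3, Tlr7, Tlr8, Tlr9, Tlr11, Tlr12, Tlr13 and Unc93b1, which were matched by symbol to the Ensembl identifiers of 38924 genes counted. All 8 passed the filter on low values, which asked for over 1 CPM (counts scaled to a common library size) in 3 or more of the 15 libraries, and were tested among the 14456 genes that did. Each subtype gave 3 libraries of polyadenylated RNA, and each library was a pool of 5 animals, female C57BL/6 mice that were naïve, with an age of 6 to 8 weeks in the labels and of 6 to 10 weeks in the methods. The mice were wild type and untreated, with no transgene or agent in any group. The spleen gave CD8+ dendritic cells (DCs) of the DC1 lineage, sorted as CD8+, CD11c+ and MHCII+, CD4+ DCs of the DC2 lineage, sorted as CD4+, CD11c+ and MHCII+, and monocytes, sorted as Ly6C+ and CD11b+. From lung-draining lymph nodes (LNs) came CD103+ DCs of the DC1 lineage and CD11b+ DCs of the DC2 lineage, both CD11c+ and gated on high MHC class II, which selects DCs that have migrated from the lung. LNs and spleens were taken from separate cohorts of mice, so a difference of organ cannot be told apart from one of cohort or gate.

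TLRs are membrane receptors that recognise molecules of microbes. Those studied here sit in endosomes, where they meet nucleic acids or proteins freed from engulfed material. Tlr3 binds double-stranded RNA, Tlr7 and Tlr8 sense single-stranded RNA and its breakdown products, Tlr9 senses DNA with unmethylated CpG, Tlr11 and Tlr12 sense the profilin of Toxoplasma and related parasites, and Tlr13 senses bacterial ribosomal RNA. Unc93b1 is a membrane protein of the endoplasmic reticulum that carries these receptors to endosomes. Cleavage of the receptors by endosomal proteases permits signalling, which runs through the adaptor Myd88 for all of them but Tlr3, which uses Ticam1 (TRIF).

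Libraries held 4531243 to 10233914 counts on genes. Levels are given as TPM (a share of transcripts, scaled to the same total in every library), which are divided by exon length and can be compared between genes, and differences between subtypes as log2 fold changes of the counts with their SE, from edgeR's quasi-likelihood test with Benjamini-Hochberg adjustment over all genes tested and a threshold of 0.05. Marker genes were summed in CPM over each list. The DC1 list (Xcr1, Clec9a, Cadm1, Irf8, Batf3) summed to 3324 to 5110 CPM in splenic CD8+ DCs and 775 to 1081 in LN CD103+ DCs, against 131 to 157 in splenic CD4+ DCs and 282 to 439 in LN CD11b+ DCs, and to 478 to 594 in monocytes. The 5 DC2 markers were high in splenic CD4+ DCs (1571 to 2660 CPM), in monocytes (2282 to 2599) and in LN CD11b+ DCs (792 to 880), and low in splenic CD8+ DCs (59.0 to 176) and LN CD103+ DCs (53.0 to 70.9, with Clec4a4 at 0), so this list did not tell DC2 from monocytes. The 4 migratory DC markers summed to at least 6234 CPM in every LN library and at most 399 in every splenic one, and the 5 monocyte markers to at least 5373 CPM in monocytes and at most 679 in DCs. LN CD103+ DC replicate 1 stood apart from its group, with 244 CPM over the 6 B cell markers against 16.4 and 28.2 CPM in the other LN CD103+ libraries. The 4 T cell markers summed to 51.7 to 105 CPM in LN DCs and to at most 4.78 CPM in the spleen, and the 6 neutrophil markers to 140 to 229 CPM in monocytes and at most 5.75 CPM in DCs. These are bulk samples, in which fewer cells of a type and less RNA per cell cannot be told apart.

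A promoter sequence was found in RefSeq for 6 of the 8 members (build GRCm38.p6, the coordinates of mm10), from 250 bases before to 50 bases after the RefSeq start of the gene. This start is the end of the Ensembl 75 gene for Tlr8, Tlr11 and Tlr12 and lies inside the Ensembl 75 gene for Tlr3 and Tlr13. Tlr7 and Unc93b1 had no entry. Tlr3, Tlr11 and Tlr12 are shown because these were the genes highest in splenic CD8+ DCs, and Tlr8 and Tlr13 because they were highest in monocytes. All are written 5′ to 3′ on the strand of the gene, with motif matches in capitals. The positions are chr8:45410331-45410630 (minus strand) for Tlr3, chr14:50357664-50357963 (plus) for Tlr11, chr4:128618570-128618869 (minus) for Tlr12, chrX:167264280-167264579 (minus) for Tlr8 and chrX:106143025-106143324 (plus) for Tlr13.
Tlr3: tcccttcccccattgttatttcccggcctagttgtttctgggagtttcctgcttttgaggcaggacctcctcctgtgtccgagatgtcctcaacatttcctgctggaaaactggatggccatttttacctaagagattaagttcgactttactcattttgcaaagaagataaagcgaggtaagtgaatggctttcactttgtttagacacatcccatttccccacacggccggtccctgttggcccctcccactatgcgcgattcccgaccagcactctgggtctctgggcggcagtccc
Tlr11: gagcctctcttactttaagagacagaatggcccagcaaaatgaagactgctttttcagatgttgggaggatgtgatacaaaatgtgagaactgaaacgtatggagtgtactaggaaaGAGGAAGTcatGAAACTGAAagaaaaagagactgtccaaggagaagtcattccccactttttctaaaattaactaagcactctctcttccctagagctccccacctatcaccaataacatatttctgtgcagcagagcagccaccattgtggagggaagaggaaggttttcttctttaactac
Tlr12: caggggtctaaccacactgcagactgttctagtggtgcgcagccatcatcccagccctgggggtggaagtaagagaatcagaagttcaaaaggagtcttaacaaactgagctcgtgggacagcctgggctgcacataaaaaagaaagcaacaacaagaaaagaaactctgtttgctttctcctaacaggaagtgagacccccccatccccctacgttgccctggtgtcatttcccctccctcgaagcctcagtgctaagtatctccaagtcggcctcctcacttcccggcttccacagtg
Tlr8: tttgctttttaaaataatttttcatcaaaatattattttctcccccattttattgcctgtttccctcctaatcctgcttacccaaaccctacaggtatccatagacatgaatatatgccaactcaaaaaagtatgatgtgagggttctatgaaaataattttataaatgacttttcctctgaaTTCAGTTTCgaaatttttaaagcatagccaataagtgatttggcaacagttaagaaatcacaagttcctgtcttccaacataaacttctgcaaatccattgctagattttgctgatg
Tlr13: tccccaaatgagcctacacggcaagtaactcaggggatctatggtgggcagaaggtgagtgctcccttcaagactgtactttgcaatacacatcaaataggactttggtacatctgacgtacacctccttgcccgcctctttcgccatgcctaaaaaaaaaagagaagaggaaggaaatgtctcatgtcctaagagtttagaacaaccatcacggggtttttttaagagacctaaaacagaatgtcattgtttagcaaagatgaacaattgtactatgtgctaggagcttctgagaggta

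The windows were searched on both strands for 5 motifs of factors known in myeloid cells. These were the core of the interferon-stimulated response element GAAANNGAA, held by 8.56% of all 32851 promoters of the same length, the core of the ETS-IRF composite element GGAANNGAA (8.24%), the AP-1 site TGANTCA (7.81%), the NF-kB core GGGNNTTCC (5.82%) and the PU.1 site GAGGAAGT (3.2%), where the GGAA of the PU.1 letters can also be part of a GGAANNGAA match. The Tlr11 window held GAGGAAGT at position -133 from the RefSeq start and GAAANNGAA at position -122, and the Tlr8 window held GAAANNGAA on the opposite strand at position -67. Tlr9 held TGANTCA at position -58 and GAGGAAGT on the opposite strand at position 11. None of the 5 sets of letters was found in the Tlr3, Tlr12 and Tlr13 windows. These matches describe the letters of the windows and are not measured binding sites.

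The 8 genes differed in where their mRNA was found. Tlr3, Tlr11 and Tlr12 were highest in splenic CD8+ DCs, and Tlr7, Tlr8 and Tlr13 were highest in splenic monocytes. Tlr9 was low in all 5 subtypes, and Unc93b1 was abundant in all 5 and lower in the LN than in the spleen. The plot of levels by library shows all 15 values of each gene.

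**Figure D1:**
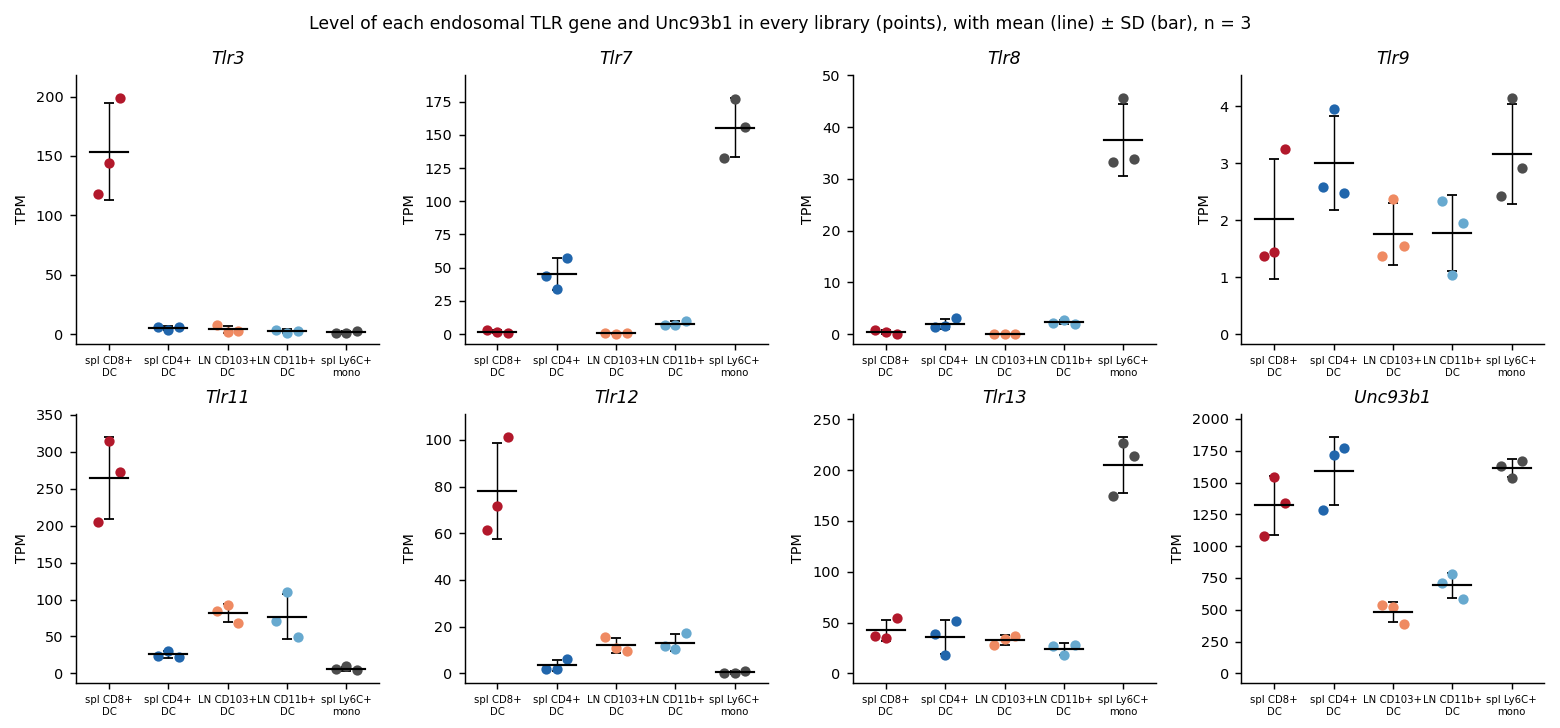
TPM of each member (y axis, linear, with its own scale in each panel) in the 3 libraries of each subtype (points), with the mean as a line and ± SD as a bar (spl, spleen; mono, monocyte). The 3 splenic CD8+ DC libraries sit above all others for Tlr3, Tlr11 and Tlr12, the 3 monocyte libraries for Tlr7, Tlr8 and Tlr13, and Tlr9 stays between 1.04 and 4.14 TPM in every library.

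Tlr3 (ENSMUSG00000031639, chr8:45395665-45410608, mm10, minus strand, 7 exon blocks) was measured at 118, 144 and 199 TPM in the splenic CD8+ DC libraries. Splenic CD4+ DCs held 6.41, 3.46 and 5.89 TPM, LN CD103+ DCs 7.68, 1.94 and 2.53 TPM, LN CD11b+ DCs 3.74, 0.966 and 2.95 TPM, and monocytes 1.08, 0.887 and 2.85 TPM. Splenic CD8+ DCs thus stood apart from all 12 other libraries, whose ranges ran into each other. The log2 fold change was 4.93 ± 0.49 (SE) against splenic CD4+ DCs (adjusted p = 6.47e-07), a ratio of mean CPM of 30.8. Between the DC1 subtypes it was -5.16 ± 0.50 for LN minus spleen (adjusted p = 1.16e-07). No neighbours in the order splenic CD4+ DC, LN CD103+ DC, LN CD11b+ DC and monocyte differed past the threshold, with adjusted p values of 0.721, 0.377 and 0.268. Monocytes were lower than splenic CD4+ DCs (-1.74 ± 0.53, adjusted p = 0.0108), a call that ended without monocyte replicate 2 (-1.40, adjusted p = 0.0647).

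In LN CD103+ DCs, 107 of the 169 Tlr3 counts came from replicate 1, the library with 244 CPM of B cell markers. That library also had the highest sums of its group for DC1 markers (1081 CPM) and plasmacytoid DC markers (72.7 CPM). Without it, LN CD103+ DCs minus LN CD11b+ DCs changed from 0.75 to -0.11 on the log2 scale, neither past the threshold, and LN CD103+ minus splenic CD8+ DCs from -5.16 to -6.03, both past it. Monocytes minus LN CD103+ DCs was -1.52 ± 0.53 with it (adjusted p = 0.0214) and -0.65 without it (adjusted p = 0.298). That call was also lost without monocyte replicate 1 (adjusted p = 0.0721) or replicate 2 (adjusted p = 0.11) and in both fits of log2 TPM with limma (adjusted p = 0.111 and 0.0958). The part of other cells in these counts was not tested.

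Tlr11 (ENSMUSG00000051969, chr14:50357914-50363663, plus strand, 2 exon blocks) was the most abundant receptor gene of the 4 DC subtypes bar splenic CD4+ DCs. It was at 205, 315 and 273 TPM in splenic CD8+ DCs, 85.1, 92.8 and 68.0 TPM in LN CD103+ DCs, 71.5, 110.0 and 49.2 TPM in LN CD11b+ DCs, 24.2, 30.8 and 21.9 TPM in splenic CD4+ DCs, and 5.45, 9.60 and 4.23 TPM in monocytes. The LN subtypes overlapped with each other and with no other group. In the spleen, CD8+ DCs were above CD4+ DCs by 3.39 ± 0.35 on the log2 scale (adjusted p = 1.09e-06). Between the LN subtypes the difference was 0.15 ± 0.32 (adjusted p = 0.831). The remaining neighbours in the order differed, with adjusted p values of 0.00056 (splenic CD8+ DC and LN CD103+ DC), 0.000871 (LN CD11b+ DC and splenic CD4+ DC) and 0.000142 (splenic CD4+ DC and monocyte).

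Tlr12 (ENSMUSG00000062545, chr4:128615446-128618619, minus strand, 1 exon block) had a similar order of levels at lower TPM, with the LN subtypes changing places. Splenic CD8+ DCs held 61.5, 71.8 and 101.0 TPM, LN CD11b+ DCs 11.8, 10.6 and 17.2 TPM, LN CD103+ DCs 15.5, 10.8 and 9.65 TPM, and splenic CD4+ DCs 2.09, 1.99 and 6.29 TPM. Monocytes held 1, 0 and 10 counts, or 0.165, 0 and 1.07 TPM, respectively. The LN subtypes overlapped and lay between both splenic DC subtypes. Splenic CD8+ DCs were above splenic CD4+ DCs by 4.61 ± 0.48 on the log2 scale (adjusted p = 9.57e-07), and LN CD103+ DCs minus LN CD11b+ DCs was -0.03 ± 0.41 (adjusted p = 0.979). Over the 15 libraries the log2 CPM of Tlr11 and Tlr12 correlated at r = 0.92, the second highest of the 28 pairs of members. These libraries share 5 subtypes, so r mostly describes the subtype means.

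In the DC2 lineage, Tlr11 and Tlr12 were higher in the LN than in the spleen, and in the DC1 lineage they were lower. LN CD11b+ DCs minus splenic CD4+ DCs gave 1.64 ± 0.33 for Tlr11 (adjusted p = 0.000871) and 2.03 ± 0.46 for Tlr12 (adjusted p = 0.00211). Among DC1 markers in the same comparison, Xcr1 was at 4.53 and 3.71 CPM (adjusted p = 0.818), Clec9a (-1.30 ± 0.28, adjusted p = 0.00119) and Cadm1 (-1.25 ± 0.25, adjusted p = 0.00074) were lower in the LN, and the transcription factors Irf8 (2.20 ± 0.27, adjusted p = 4.64e-06) and Batf3 (0.77 ± 0.18, adjusted p = 0.00301) were higher. The sum of the 5 markers was 282 to 439 CPM in LN CD11b+ DCs and 131 to 157 CPM in splenic CD4+ DCs. Plasmacytoid DC markers were also highest in splenic CD8+ DCs, the subtype highest for Tlr3, Tlr11 and Tlr12. Sums over 6 genes were 80.0 to 100.9 CPM there, 25.3 to 72.7 in LN CD103+ DCs and 22.3 to 53.5 in LN CD11b+ DCs. They were 8.66 to 23.2 CPM in splenic CD4+ DCs and 2.56 to 3.29 CPM in monocytes. Of the 4 markers that passed the filter, 3 were higher in splenic CD8+ than CD4+ DCs. Outside splenic CD8+ DCs, Tlr3 did not follow this order, with means of 9.14 CPM in splenic CD4+ and 7.87 CPM in LN CD103+ DCs. The part of either list in these levels was not tested.

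Tlr7 and Tlr8 lie beside each other on the X chromosome, at chrX:167304929-167330558 (ENSMUSG00000044583, 6 exon blocks) and chrX:167242696-167264329 (ENSMUSG00000040522, 4 exon blocks), both on the minus strand, 40599 bases apart with no other gene between them. Tlr7 was at 133, 177 and 156 TPM in monocytes, 43.8, 33.8 and 57.5 TPM in splenic CD4+ DCs, 6.84, 6.64 and 9.80 TPM in LN CD11b+ DCs, 3.43, 1.46 and 1.010 TPM in splenic CD8+ DCs, and 0.541, 0.316 and 0.751 TPM in LN CD103+ DCs. No group overlapped its neighbour in this order, and all 4 steps passed the threshold, with adjusted p values of 3.94e-05, 2.9e-06, 8.81e-05 and 0.00232 from the top. It was the sole member for which every neighbour differed. In both organs Tlr7 was lower in DC1, by -4.46 ± 0.33 in the spleen (adjusted p = 1.92e-08) and -3.78 ± 0.40 in the LN (adjusted p = 2.84e-06). In both lineages it was lower in the LN, by -1.81 ± 0.44 in DC1 (adjusted p = 0.00232, and -1.17 without splenic CD8+ DC replicate 1, adjusted p = 0.0265) and -2.49 ± 0.29 in DC2 (adjusted p = 2.9e-06). The sum of the 5 monocyte markers was also lower in DC1 in each organ. It was 468 to 679 CPM in splenic CD4+ DCs and 146 to 218 in splenic CD8+ DCs. In the LN it was 542 to 648 CPM in CD11b+ DCs and 30.9 to 49.4 CPM in CD103+ DCs. Of the 5, 3 were lower and 2 higher in DC1 in the spleen, and 5 were lower in the LN. The sum of the 7 macrophage markers was lower in DC1 as well, with 6 of 7 lower in each organ. It was 474 to 562 CPM in splenic and 547 to 817 CPM in LN DC2. In splenic and LN DC1 it was 168 to 243 and 183 to 222 CPM, but monocytes had 34.6 to 69.3 CPM. Between organs in DC2, 4 of the 5 monocyte and 3 of the 7 macrophage markers were higher in the LN, where Tlr7 was lower. In DC1, 3 of each list were lower in the LN, as Tlr7 was. The part of such cells in the Tlr7 and Tlr8 levels of DCs was not tested. Plasmacytoid DCs are known for Tlr7 and Tlr9. Of their 6 markers, 4 had counts in monocytes, with a sum of 2.56 to 3.29 CPM, and Siglech and Klk1 were at 0. The part of plasmacytoid DCs in the Tlr7 levels was not tested.

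Tlr8 was highest in monocytes and low in all DC subtypes. Monocytes held 227, 671 and 358 counts, or 33.2, 45.6 and 33.8 TPM. LN CD11b+ DCs held 29, 31 and 13 counts, splenic CD4+ DCs 14, 15 and 25 counts, splenic CD8+ DCs 9, 5 and 0 counts, and the 3 LN CD103+ DC libraries none. With 3 counts over the group in place of 0, monocytes were at least 379-fold, LN CD11b+ DCs at least 25.5-fold, splenic CD4+ DCs at least 20.6-fold and splenic CD8+ DCs at least 4.23-fold higher than LN CD103+ DCs. These limits cover counting error only. Monocytes were above splenic CD4+ DCs by 4.21 ± 0.48 on the log2 scale (adjusted p = 1.94e-06) and above LN CD11b+ DCs by 3.88 ± 0.46 (adjusted p = 3.06e-06). LN CD11b+ DCs and splenic CD4+ DCs did not differ past the threshold (0.33 ± 0.49, adjusted p = 0.656). Splenic CD8+ DCs were lower than splenic CD4+ DCs (-2.25 ± 0.60, adjusted p = 0.0102), a call that was lost in a fit of those 6 libraries alone (adjusted p = 0.0984). Between splenic CD8+ and LN CD103+ DCs, both of which hold a library at 0, the adjusted p was 0.0103, and 0.0556 with those 6 libraries alone. Tlr7 and Tlr8 had the highest correlation of all 28 pairs, r = 0.92 over the 15 libraries.

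Tlr13 (ENSMUSG00000033777, chrX:106143204-106160493, plus strand, 4 exon blocks) was the most abundant receptor gene of monocytes, at 174, 226 and 214 TPM. The DC subtypes were lower and close to each other. Splenic CD8+ DCs held 37.3, 35.3 and 54.4 TPM, splenic CD4+ DCs 38.5, 17.9 and 51.2 TPM, LN CD103+ DCs 27.5, 33.6 and 37.3 TPM, and LN CD11b+ DCs 27.2, 17.7 and 28.1 TPM. Monocytes lay above every DC library, by 2.18 ± 0.27 over splenic CD8+ DCs (adjusted p = 2.42e-06) and 2.51 ± 0.27 over splenic CD4+ DCs (adjusted p = 5.79e-07) on the log2 scale. No neighbours among the 4 DC subtypes differed past the threshold, with adjusted p values of 0.407, 0.891 and 0.185. The ends of that order did (splenic CD8+ DC minus LN CD11b+ DC, 0.81 ± 0.26, adjusted p = 0.0205), though not without splenic CD8+ DC replicate 3 (0.58, adjusted p = 0.115) or LN CD11b+ DC replicate 2 (0.66, adjusted p = 0.0953). The 6 neutrophil markers all had counts in monocytes and summed to 140 to 229 CPM, where the 5 monocyte markers summed to 5373 to 5922 CPM. Of the 4 neutrophil markers past the filter, 3 were higher in monocytes than in each DC subtype. The part of neutrophils in the Tlr7, Tlr8 and Tlr13 levels of monocytes was not tested.

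Tlr9 (ENSMUSG00000045322, chr9:106222598-106226876, plus strand, 2 exon blocks) was at 1.04 to 4.14 TPM in all 15 libraries, from 11 to 59 counts each. Monocytes held 2.42, 4.14 and 2.92 TPM, splenic CD4+ DCs 2.58, 3.95 and 2.48, splenic CD8+ DCs 1.37, 1.45 and 3.25, LN CD11b+ DCs 2.33, 1.04 and 1.95, and LN CD103+ DCs 1.36, 2.38 and 1.54 TPM. In TPM the LN libraries lay just below those of monocytes and splenic CD4+ DCs, and splenic CD8+ DCs overlapped both, while in CPM every pair of groups overlapped. None of the 10 pairs of subtypes passed the threshold in edgeR or DESeq2, and none had an unadjusted p below 0.05 in edgeR. The largest difference was 0.76 ± 0.49 for monocytes over LN CD11b+ DCs (adjusted p = 0.212), so at these counts a difference of this size could not be told from the spread. LN CD103+ DC replicate 1, with the high B cell markers, held 15 Tlr9 counts, against 32 and 14 in the other libraries of its group. The part of other cells in these counts was not tested.

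Unc93b1 (ENSMUSG00000036908, chr19:3935186-3949340, plus strand, 10 exon blocks) was measured at 1630, 1535 and 1672 TPM in monocytes, 1287, 1713 and 1771 TPM in splenic CD4+ DCs, and 1082, 1544 and 1337 TPM in splenic CD8+ DCs. LN CD11b+ DCs held 711, 782 and 585 TPM and LN CD103+ DCs 535, 525 and 388 TPM. All 9 splenic libraries lay above all 6 LN libraries, the splenic groups overlapped, and LN CD11b+ DCs lay above LN CD103+ DCs, with 585 TPM as the lowest of the former and 535 TPM as the highest of the latter. In CPM the LN groups overlapped, with 652 in LN CD11b+ DC replicate 3 and 677 in LN CD103+ DC replicate 2. In DC1 the LN minus spleen difference was -1.36 ± 0.23 (adjusted p = 8.39e-05), and in DC2 it was -1.15 ± 0.23 (adjusted p = 0.000699). Between DC1 and DC2 it was -0.23 ± 0.23 in the spleen (adjusted p = 0.492) and -0.44 ± 0.23 in the LN (adjusted p = 0.232). Monocytes differed from splenic CD4+ DCs by -0.05 ± 0.23 (adjusted p = 0.89) and from splenic CD8+ DCs by 0.18 ± 0.23 (adjusted p = 0.562). No exon of any of the 8 members overlapped an exon of another counted gene, so reads shared between neighbouring genes do not enter these counts.

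The receptor genes made up pools of different size and make-up. Summed over the 7 receptors, TPM reached 542 ± 104 (SD, n = 3) in splenic CD8+ DCs and 409.5 ± 57.4 in monocytes, against 133 ± 11.8 and 129 ± 19.4 in the CD103+ and CD11b+ DCs of the LN and 120 ± 27.5 in splenic CD4+ DCs. In splenic CD8+ DCs, Tlr11 took 48.8% ± 6.11 of the sum, Tlr3 28.1% ± 3.13 and Tlr12 14.3% ± 1.70. In splenic CD4+ DCs, Tlr7 took 37.2% ± 1.33, Tlr13 28.7% ± 8.32 and Tlr11 22.7% ± 9.33. Both LN subtypes were led by Tlr11, with 61.3% ± 4.36 in CD103+ and 58.2% ± 14.7 in CD11b+ DCs, followed by Tlr13 with 24.9% ± 5.70 and 19.6% ± 6.97. Monocytes held Tlr13 at 50.1% ± 1.43, Tlr7 at 37.9% ± 0.328 and Tlr8 at 9.16% ± 0.904. The TPM of Unc93b1 was 13.7 ± 4.05 times the receptor sum in splenic CD4+ DCs, 5.38 ± 0.245 times in LN CD11b+ DCs, 4.0 ± 0.677 times in monocytes, 3.61 ± 0.334 times in LN CD103+ DCs and 2.46 ± 0.304 times in splenic CD8+ DCs. These are shares of mRNA and carry no test.

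**Figure D2:**
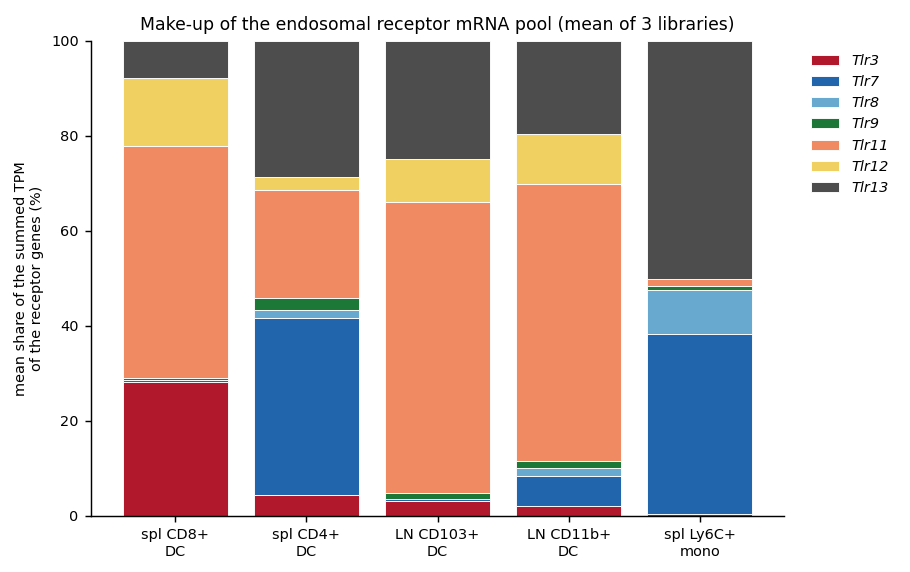
Share of each receptor gene in the summed TPM of the 7 receptor genes (y axis, percent, mean of 3 libraries) for each subtype. Tlr11 (48.8%) and Tlr3 (28.1%) lead in splenic CD8+ DCs, Tlr11 in both LN subtypes, Tlr7 in splenic CD4+ DCs, and Tlr13 and Tlr7 in monocytes.

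The splenic DC1 and DC2 subtypes differed in 5 of the 8 members. Tlr3, Tlr11 and Tlr12 were higher in CD8+ DCs, Tlr7 and Tlr8 were higher in CD4+ DCs, and Tlr9 (-0.55 ± 0.48), Tlr13 (0.33 ± 0.26) and Unc93b1 (-0.23 ± 0.23) did not pass the threshold. Thus 3 of 8 members were higher, where 13.1% of all genes tested were, and 2 were lower, where 14.4% were. In the LN, Tlr7 and Tlr8 were again lower in DC1, 2 of 8 where 7.73% of all genes were lower. No member was higher in LN CD103+ DCs, where 5.22% of all genes were, whether by edgeR, by DESeq2 or by an unadjusted p below 0.05. The members' median log2 fold change was 0.05 in the spleen and 0.04 in the LN, beside 0 and -0.01 over all genes tested.

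**Figure D3:**
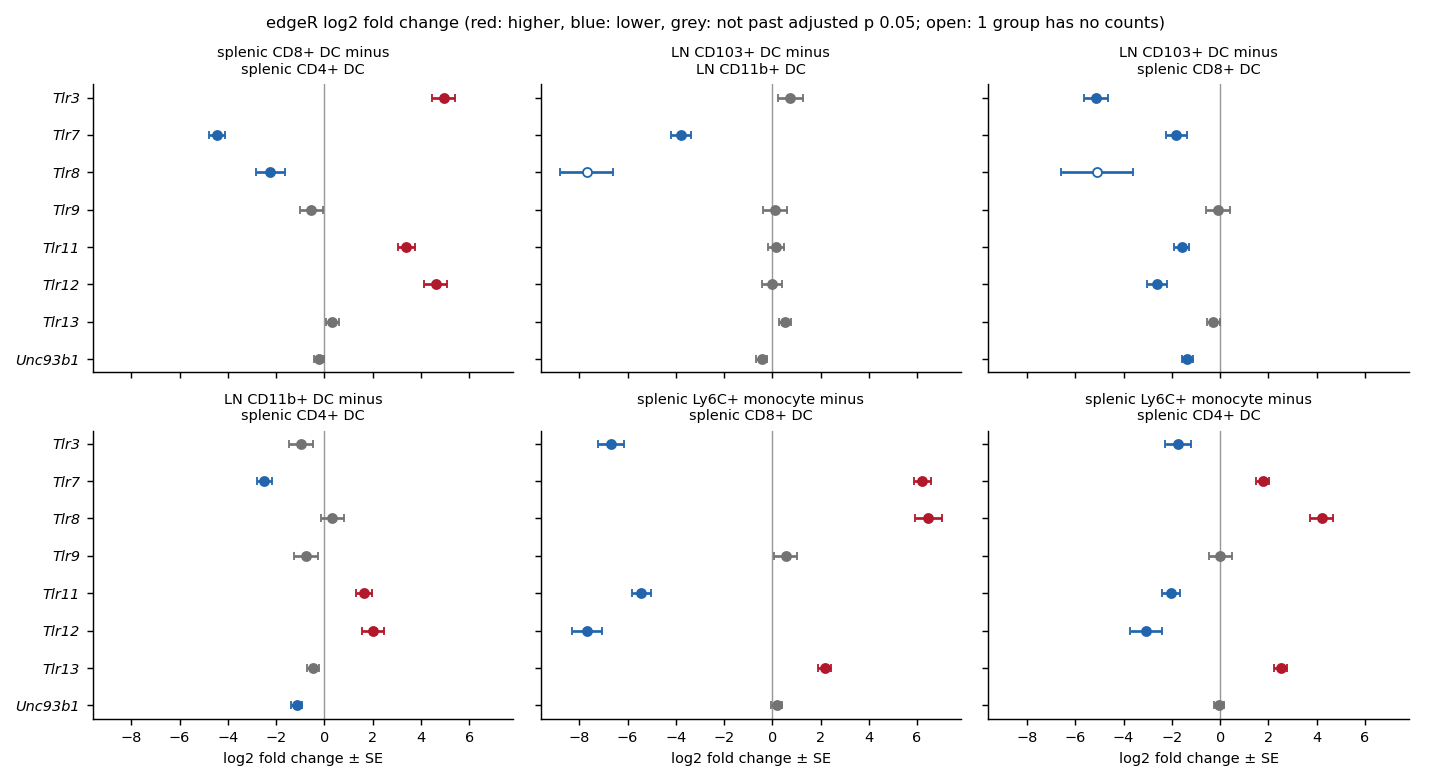
Log2 fold change ± SE (x axis) of each member in the 6 main comparisons, from edgeR. Red points were higher and blue points lower past an adjusted p of 0.05, grey points did not pass, and open points rest on a group without counts, where the fitted value is no measure of size.

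The DC1 against DC2 difference was itself compared between organs, as the splenic difference minus the LN difference. It was 4.18 ± 0.68 on the log2 scale for Tlr3 (adjusted p = 0.00047), 3.24 ± 0.47 for Tlr11 (adjusted p = 0.000164) and 4.64 ± 0.62 for Tlr12 (adjusted p = 7.87e-05). All 3 were DC1 genes in the spleen and showed no difference past the threshold in the LN. Tlr8 passed as well (adjusted p = 0.0365), but LN CD103+ DCs had no Tlr8 counts, its fitted size depends on a prior count, and the call was lost in 12 of the alternative fits. Tlr7 had no such difference past the threshold (-0.68 ± 0.56, adjusted p = 0.501), nor had Tlr9 (-0.65 ± 0.70), Tlr13 (-0.20 ± 0.37) and Unc93b1 (0.22 ± 0.32). Hence 4 of 8 members were called, where 11.2% of all genes were. The DC1 markers differed in the same direction, with all 5 past the threshold and a median of 1.75. Unlike these receptors, 4 of the 5 were still higher in LN CD103+ than LN CD11b+ DCs, with a median of 2.57. Xcr1 was at 716 and 3.71 CPM in splenic CD8+ and CD4+ DCs, and at 55.2 and 4.53 CPM in LN CD103+ and CD11b+ DCs. The part of the purity of the sorts in these differences was not tested.

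**Figure D4:**
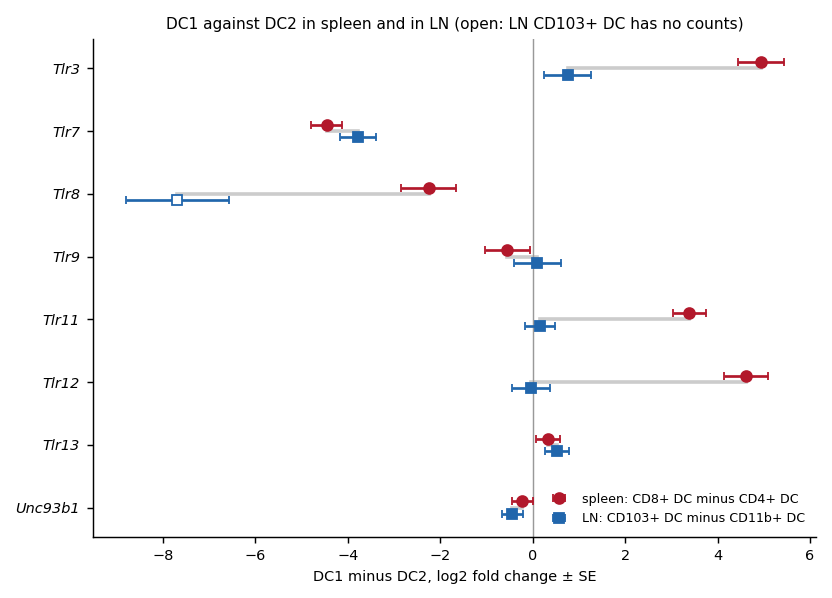
DC1 minus DC2 log2 fold change ± SE (x axis) of each member in the spleen (red circles) and in the LN (blue squares, open where LN CD103+ DCs have no counts). Tlr3, Tlr11 and Tlr12 are far above 0 in the spleen and close to it in the LN, and Tlr7 is well below 0 in both organs.

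Within DC1, the LN cells held less mRNA of 6 of the 8 members than the splenic cells, where 21.8% of all genes were lower. These were Tlr3, Tlr7, Tlr8, Tlr11, Tlr12 and Unc93b1, and Tlr9 (-0.10 ± 0.49) and Tlr13 (-0.28 ± 0.26) did not pass. No member was higher, where 23.8% of all genes were, nor was one by DESeq2 or by an unadjusted p below 0.05. The members' median was -1.71, beside 0.00483 over all genes, and is the same with Tlr8 at its bound. Within DC2, the LN cells held more Tlr11 and Tlr12, 2 of 8 members where 19.3% of all genes were higher, and less Tlr7 and Unc93b1, 2 of 8 where 13.8% were lower. Tlr3 was at -0.98 ± 0.50 (adjusted p = 0.146), Tlr13 at -0.48 ± 0.26 and Tlr9 at -0.75 ± 0.49. For Tlr3 the libraries of both groups did not overlap in CPM but did in TPM.

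Monocytes differed from both splenic DC subtypes in 6 of 8 members. Tlr7, Tlr8 and Tlr13 were higher than in splenic CD8+ DCs, where 20.4% of all genes were, and Tlr3, Tlr11 and Tlr12 were lower, where 21.7% were. Against splenic CD4+ DCs the members split the same way, 3 higher beside 23.8% and 3 lower beside 24.2% of all genes. These comparisons share the monocyte libraries, which also differed from the DC libraries in bead enrichment and sequencing runs. The sizes against CD8+ and CD4+ DCs were 6.22 ± 0.35 and 1.76 ± 0.27 for Tlr7, -6.68 ± 0.55 and -1.74 ± 0.53 for Tlr3, -5.43 ± 0.40 and -2.04 ± 0.36 for Tlr11, and -7.68 ± 0.61 and -3.07 ± 0.67 for Tlr12. The Tlr12 values rest on 1, 0 and 10 monocyte counts and were -10.28 and -5.67 without monocyte replicate 3, where 1 count is left and the fitted size depends on the prior count. Of the remaining pairs, 7 of 8 members differed between monocytes and LN CD103+ DCs (53.2% of all genes), 6 between monocytes and LN CD11b+ DCs (47.8%), 7 between splenic CD8+ and LN CD11b+ DCs (39.9%) and 5 between LN CD103+ and splenic CD4+ DCs (47%).

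Genes that handle the receptors on the way to the endosome were counted next. Of 9 genes for trafficking and chaperones, 2 were higher and 1 lower in splenic CD8+ than CD4+ DCs, beside 13.1% and 14.4% of all genes tested. Hsp90b1, the chaperone gp96 that folds TLRs, held 488 ± 76.3 CPM (SD, n = 3) in splenic DC1 and 113 ± 17.2 CPM in splenic DC2 (difference 2.10 ± 0.20, adjusted p = 4.4e-07). The level was 107 ± 11.3 CPM in LN DC1, 136 ± 27.7 CPM in LN DC2 and 219.8 ± 28.0 CPM in monocytes. Its lineage difference was larger in the spleen by 2.46 ± 0.28 (adjusted p = 1.55e-05), and Lrrc59, which takes part in moving these receptors out of the endoplasmic reticulum, by 1.06 ± 0.33 (adjusted p = 0.0451). Slc15a4, an endolysosomal transporter needed for Tlr7 and Tlr9 signalling, was lower in splenic CD8+ than CD4+ DCs (39.3 and 89.4 CPM, -1.19 ± 0.26) and higher in monocytes than in splenic CD8+ DCs (1.49 ± 0.26). 5430427O19Rik (Tasl), the adaptor that Slc15a4 binds, was lower in the LN in both lineages, by -1.53 ± 0.37 in DC1 and -1.43 ± 0.36 in DC2. In LN CD103+ against splenic CD8+ DCs the list counted 1 higher and 4 lower, beside 23.8% and 21.8% of all genes (median -0.49, beside 0.00483 over all genes). In LN CD11b+ against splenic CD4+ DCs 1 was lower and none higher, beside 13.8% and 19.3% (1 higher by an unadjusted p below 0.05, none by DESeq2). In monocytes 5 were higher and 1 lower against splenic CD8+ DCs, beside 20.4% and 21.7% (median 0.64, beside -0.04), and 4 higher and 1 lower against splenic CD4+ DCs, beside 23.8% and 24.2%. With the replicate number as a block, Ap3b1 also passed as lower in splenic CD8+ than CD4+ DCs (-0.41, adjusted p = 0.0454) and Lrrc59 as higher in LN CD11b+ than splenic CD4+ DCs (0.60, adjusted p = 0.0287). That block also added Sdcbp in the lineage difference between organs (1.01, adjusted p = 0.0374). In LN CD103+ against CD11b+ DCs, edgeR and DESeq2 called none of the 9, beside 5.22% of all genes higher and 7.73% lower. By an unadjusted p below 0.05, 1 passed. Neighbouring genes overlap 15.7% of the exon length of Hsp90b1 and 7.19% of that of Lrrc59, and reads were counted without strand.

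Of 5 endosomal proteases 4 were tested, and Ctsk was below the filter. All 4, Ctsb, Ctsl, Ctss and Lgmn, were higher in monocytes than in splenic CD8+ DCs (median 2.03, beside -0.04 over all genes), and 3 were higher than in splenic CD4+ DCs. Ctsb, a cathepsin, was at 2672 CPM in monocytes against 648 and 842 CPM in splenic CD8+ and CD4+ DCs (2.04 ± 0.21 and 1.67 ± 0.21). Lgmn, the asparagine endopeptidase that cleaves Tlr7 and Tlr9, was higher in the LN in both lineages, by 2.36 ± 0.34 in DC1 (201 and 39.1 CPM) and 1.81 ± 0.34 in DC2 (220 and 62.6 CPM). Ctss, a cathepsin also known for antigen presentation, was lower in splenic CD8+ than CD4+ DCs (727 and 1991 CPM, -1.45 ± 0.22, adjusted p = 6.19e-05). No protease was higher there, by edgeR, DESeq2 or unadjusted p, beside 13.1% of all genes higher and 14.4% lower. Of the 4, 2 were higher in LN CD103+ than splenic CD8+ DCs, beside 23.8% of all genes, and 1 in LN CD11b+ than splenic CD4+ DCs, beside 19.3%. Between the LN subtypes 1 was lower in CD103+ DCs (Ctsl, -1.42 ± 0.36), beside 7.73%. The lineage difference of 1 was more negative in the spleen (Ctss, spleen minus LN -0.99 ± 0.30), beside 11.2% called in either direction. The monocyte counts stand beside 20.4% of all genes higher than in splenic CD8+ and 23.8% than in CD4+ DCs. Fdft1 overlaps 16.2% of the exon length of Ctsb.

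Nucleases decide which nucleic acids the receptors meet, and all 6 listed were tested. Dnase1l3, which degrades DNA in and around particles, was at 858 CPM in splenic DC1, 445 CPM in splenic DC2, 239.7 CPM in LN DC1, 93.5 CPM in LN DC2 and 6.75 CPM in monocytes. It was lower in monocytes than in splenic CD8+ DCs by -6.98 ± 0.24 on the log2 scale (adjusted p = 1.53e-12) and lower in the LN in both lineages (-1.84 ± 0.19 and -2.25 ± 0.19). Pld4, an exonuclease that limits Tlr7 and Tlr9 ligands, was lower in the LN as well, by -1.83 ± 0.22 in DC1 and -1.25 ± 0.22 in DC2, and had its highest mean in monocytes with 1376 ± 92.2 CPM. Pld3, its relative, was lower in DC1 in both organs (-1.99 ± 0.27 and -2.67 ± 0.27 for DC1 minus DC2). Of the 6 nucleases, 3 were higher and 1 lower in splenic CD8+ than CD4+ DCs, beside 13.1% and 14.4% of all genes. Between the LN subtypes 1 was higher and 3 lower in CD103+ DCs, beside 5.22% and 7.73%. In LN CD103+ against splenic CD8+ DCs 2 were lower and none higher, also by DESeq2 or an unadjusted p, beside 21.8% and 23.8%. In LN CD11b+ against splenic CD4+ DCs 3 were higher and 2 lower, beside 19.3% and 13.8%, and a replicate block added Rnaset2b as higher (1.00, adjusted p = 0.0385). In monocytes 4 were higher and 1 lower against splenic CD8+ DCs, beside 20.4% and 21.7%, and 4 higher and 2 lower against splenic CD4+ DCs, beside 23.8% and 24.2%. No nuclease had a lineage difference between organs in edgeR or DESeq2, beside 11.2% of all genes, with 1 at an unadjusted p below 0.05. Rnaset2a and Rnaset2b are near-identical copies whose reads can be split, so their counts are uncertain, and Mast1 overlaps 30% of the exon length of Dnase2a.

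A further 14 genes act after the receptors. Myd88, the adaptor, was lower in the LN in both lineages, by -1.37 ± 0.24 in DC1 (68.3 and 177 CPM, adjusted p = 0.00015) and -1.37 ± 0.24 in DC2 (103 and 267 CPM, adjusted p = 0.000229), and Acaa1a overlaps 11.3% of its exon length. The ubiquitin ligase Traf6 was higher in the LN in both, by 2.16 ± 0.23 and 1.54 ± 0.23. Ikbke, a kinase that activates interferon regulatory factors, was higher in the LN by 3.95 ± 0.71 in DC1 (12.03 and 0.745 CPM) and 3.86 ± 0.70 in DC2 (16.3 and 1.15 CPM), and had its highest mean in monocytes, 59.3 ± 9.75 CPM. Irak3, an inhibitor of the signalling kinases, was at 84.0 CPM in monocytes against 1.35 CPM in splenic CD8+ DCs (5.94 ± 0.35, adjusted p = 1.86e-10). Irf7, the transcription factor that drives type I interferon after Tlr7 and Tlr9, was at 1225 ± 183 CPM in monocytes. DC2 held 548 ± 169 CPM of it in the LN and 537 ± 86.6 CPM in the spleen, and DC1 211 ± 41.5 and 420.4 ± 73.2 CPM. Between the LN subtypes it was lower in DC1 by -1.38 ± 0.24 (adjusted p = 0.000555). Of the 14, 4 were lower and none higher in splenic CD8+ than CD4+ DCs, beside 14.4% and 13.1% of all genes (1 higher by an unadjusted p below 0.05, none by DESeq2), and 5 lower and 1 higher with a replicate block. The block added Myd88 as lower (-0.59, adjusted p = 0.00984) and Irak2 as higher (0.67, adjusted p = 0.034). In LN CD103+ against CD11b+ DCs 2 were lower and none higher, beside 7.73% and 5.22%, where DESeq2 called 2 in each direction and the replicate block 3 lower and 2 higher. There the block added Myd88 as lower (-0.57, adjusted p = 0.0223). It added Tbk1 (0.63, adjusted p = 0.0215) and Irf5 (0.63, adjusted p = 0.0234) as higher. In LN CD103+ against splenic CD8+ DCs 6 were higher and 2 lower, beside 23.8% and 21.8%. In LN CD11b+ against splenic CD4+ DCs 5 were higher and 1 lower, beside 19.3% and 13.8%, and 5 higher and 2 lower with the block. The gene added there was Irak4 (-0.53, adjusted p = 0.0264). In monocytes 8 and 7 were higher against splenic CD8+ and CD4+ DCs, beside 20.4% and 23.8%, and none lower by edgeR, DESeq2 or an unadjusted p (medians 0.62 and 0.56, beside -0.04 and -0.01 over all genes). In the difference between organs edgeR called Traf3 (-1.51, adjusted p = 0.00596), beside 11.2% of all genes, and DESeq2 called 1 gene in each direction. With the replicate block, Irf7 passed there as well (0.99, adjusted p = 0.0354).

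**Figure D5:**
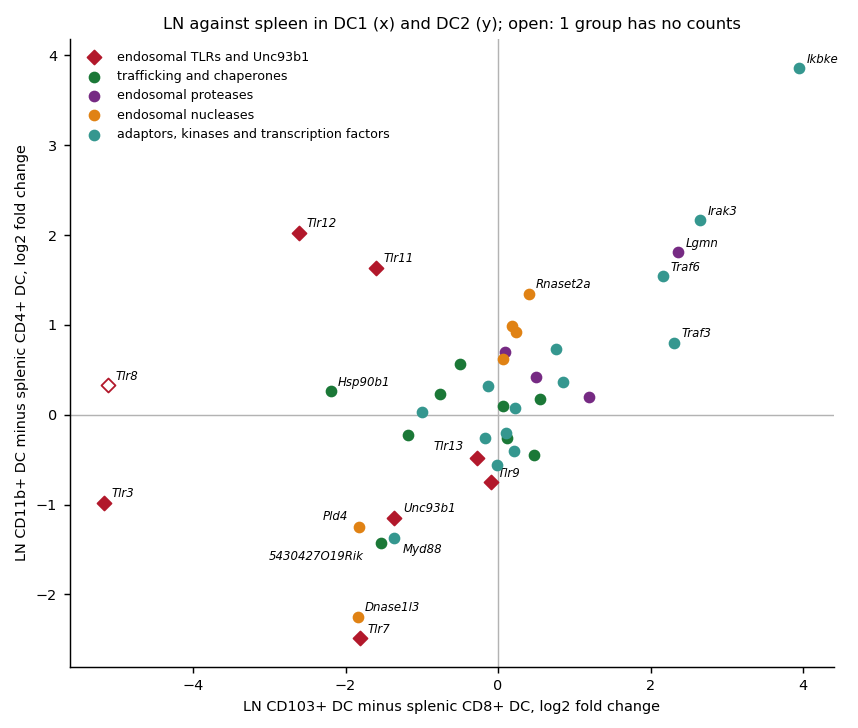
LN minus spleen log2 fold change in DC1 (x axis) and in DC2 (y axis) for the members (diamonds) and the 4 pathway lists (circles), from edgeR. Tlr11 and Tlr12 lie to the left of 0 and above it, Tlr7, Unc93b1, Myd88, Pld4 and Dnase1l3 lie below 0 on both axes, and Lgmn, Traf6, Irak3 and Ikbke lie above 0 on both.

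For each member, the genes most like it were taken by Pearson's r of log2 CPM over the 15 libraries, among 10245 genes (10246 for Tlr9) with a mean of at least 10 CPM. For Tlr3 this was Btla, an inhibitory receptor (r = 0.99), and for Tlr7 Emb (r = 0.99). Fcgr3, an activating Fc receptor, was most like Tlr8 (r = 0.98). Plcb4 (r = 0.98) and Cd8a (r = 0.96) were most like Tlr11, and Cd24a (r = 0.97), Fndc7 (r = 0.96) and Cd8a (r = 0.95) most like Tlr12. Cd8a encodes the marker by which splenic CD8+ DCs were sorted. Tlr13 was followed by Cdkn2d (r = 0.97) and Unc93b1 by Fermt3 (r = 0.98). For Tlr9 the highest value was 0.75, with Slc35a2. With 5 subtypes behind 15 libraries, these values describe patterns of subtype means and carry no test.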

How the data were processed

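RNA-seq was performed by the authors on 15 murine libraries, 3 from each of 5 subtypes, assigned by sample title and column name. Per the methods, reads under 30 nt were discarded, the rest were mapped to mm10 with STAR (2.4.0j per the submitters' processing notes), and uniquely mapped reads were counted on Ensembl 75 genes with featureCounts of Subread 1.5.2, without strand, with a read counted for each gene it overlaps by a fraction of at least 0.5. The count values were deposited by the authors without normalization, summed over runs, and TPM, also deposited by the authors, divide them by exon length. Exon coordinates come from the deposited counting table, symbols from a table of Ensembl gene names (37607 of 38924 identifiers) and promoters from RefSeq.

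Counts were tested in R 4.3.3 with edgeR 4.0.16 (quasi-likelihood test, TMM factors, 1 model with a mean per subtype, 10 residual degrees of freedom). Adjustment followed Benjamini and Hochberg, over all 14456 genes past a filter of over 1 CPM in 3 or more libraries. The SE is the size of the log2 fold change divided by the square root of F. CPM use library sizes scaled by TMM, and log2 CPM a prior count of 2. With 3 libraries against 3, no exact permutation test (2-sided) can give less than p = 0.1, so the p values rest on the model. Each library held cells pooled from 5 mice, and the sources used here do not say whether replicates or subtypes of an organ shared animals, so the p values measure the spread between these libraries. The alternatives were RLE factors, DESeq2 1.42.0, limma 3.58.1 on log2(TPM + 1) and log2(TPM + 0.1), other filters, fits of the compared libraries alone, a replicate block and leaving out each library.

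Replicate numbers come from the labels. Deviations from the group means correlated at over 0.1 in all 3 same-numbered pairs of 4 of the 10 pairs of subtypes (r from 0.12 to 0.38), which were splenic CD8+ with CD4+ DCs, LN CD103+ with CD11b+ DCs, and splenic CD4+ DCs with each LN subtype. In these 4 the replicate number was used as a block, and the blocked value is given where it changes a call. The same holds for the difference between organs. LNs and spleens came from separate cohorts, so across organs a shared number cannot mark shared animals. What the block marks there was not tested. The block for the pathway lists was added, and the genes it adds were named, after the data were seen.

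The members and lists were chosen with earlier results of these data known. All members are named, and from each pathway list up to 4 genes per comparison by size of log2 fold change, among those past the threshold with at least 10 CPM in the higher group, from which the text describes some.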

Additional observations from a re-analysis of the deposited data

Results flagged for a closer look

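For 4 members the DC1 against DC2 difference was not the same in spleen and LN, by the test of that difference in edgeR over all 15 libraries. Its size on the log2 scale, spleen minus LN, was 4.18 ± 0.68 for Tlr3 (4.93 in the spleen and 0.75 in the LN, adjusted p = 0.00047), 3.24 ± 0.47 for Tlr11 (3.39 and 0.15, adjusted p = 0.000164) and 4.64 ± 0.62 for Tlr12 (4.61 and -0.03, adjusted p = 7.87e-05). For Tlr8 the fitted size was 5.44 ± 1.60 (adjusted p = 0.0365), which depends on a prior count because LN CD103+ DCs had no counts, and the call was lost in 12 alternative fits. With 1 library left out at a time, the size ranged from 3.70 to 5.05 for Tlr3, 2.82 to 3.51 for Tlr11 and 4.36 to 5.26 for Tlr12, past the threshold in each fit, and from 4.59 to 6.03 for Tlr8, with adjusted p values up to 0.108. Organ cannot be told apart from cohort or gate.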

How the results depend on the processing

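The number of members called in each of the 11 comparisons stayed within 1.5 times the main count under all alternatives. Of 2056 log2 fold changes of single members under an alternative, 1995 kept their direction and their side of the threshold, 25 fell short of the threshold, 3 newly passed it and 33 changed sign. All sign changes were of differences that did not pass the threshold. Outside the fits that left out a library, they were Tlr12 in LN CD103+ minus LN CD11b+ DCs (0.0302 with the replicate block), Tlr9 in monocytes minus splenic CD4+ DCs (-0.0359 with RLE factors, -0.0348 with DESeq2, -0.0418 with the compared libraries alone, -0.00443 with the replicate block and -0.0205 with the replicate block within organ), Unc93b1 in monocytes minus splenic CD4+ DCs (0.0331 with log2(TPM + 1) and 0.0332 with log2(TPM + 0.1)) and Tlr13 in LN CD103+ minus splenic CD4+ DCs (-0.0147 and -0.0113). Leaving out a library gave ranges of -0.11 to 1.24 (Tlr3), -0.21 to 0.38 (Tlr9), -0.11 to 0.57 (Tlr11) and -0.25 to 0.14 (Tlr12) in LN CD103+ minus LN CD11b+ DCs, -0.41 to 0.43 for Tlr9 in LN CD103+ minus splenic CD8+ DCs, -0.27 to 0.38 for Tlr9 and -0.20 to 0.12 for Unc93b1 in monocytes minus splenic CD4+ DCs, -0.32 to 0.48 for Tlr9 in splenic CD8+ minus LN CD11b+ DCs, -1.09 to 0.12 for Tlr3 and -0.22 to 0.32 for Tlr13 in LN CD103+ minus splenic CD4+ DCs, and -0.47 to 0.0705 for Tlr13 in the difference between organs. Tlr3 in LN CD11b+ minus splenic CD4+ DCs passed only without a filter (-0.99, adjusted p = 0.00481), Tlr13 there only without splenic CD4+ DC replicate 2 (-0.74, adjusted p = 0.0234), and Tlr7 in the difference between organs only with log2(TPM + 1) (-1.50, adjusted p = 0.0275). The cause was not tested. The replicate block changed no call of a member in any of the 11 comparisons, with 5 called in splenic CD8+ minus CD4+ DCs and 2 in LN CD103+ minus CD11b+ DCs, and raised all genes called from 3966 to 4645 and from 1872 to 2339. The fit of log2(TPM + 1) gave smaller sizes where a group was low, such as -1.60 for Tlr12 in monocytes minus splenic CD4+ DCs and -0.88 for Tlr7 in LN CD103+ minus splenic CD8+ DCs, both past the threshold. Low counts limit Tlr9 (11 to 59 in a library), Tlr8 in DCs (0 to 31), Tlr12 in monocytes (0 to 10) and Tlr7 in LN CD103+ DCs (5 to 8).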
